A study of Mus musculus with 31 samples.

Results

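Cav1 and Cav2 encode caveolin-1 and caveolin-2, and their mRNA was followed in mouse liver across 31 arrays in 8 groups. All probe sets that the array annotation assigned to either gene were taken, which gave 3 of 45037 probe sets, or 2 of 17097 genes with a probe set. Cav1 had 1 probe set (1449145_PM_a_at) and Cav2 had 2 (1417327_PM_at and 1425955_PM_at). The pair was chosen for the high Cav1 values of Xbp1 ko livers against their WT littermates, so that contrast is described without a test for both genes. For the caveolins, tests are given only for the contrasts that the choice did not use.

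Caveolin-1 is the main coat protein of caveolae, small flask-shaped pits of the plasma membrane rich in cholesterol, and it also coats lipid droplets. Caveolin-2 associates with caveolin-1 and needs it to reach the cell surface, while caveolin-3 takes the same place in muscle. In liver, caveolae are best known from endothelial and other non-parenchymal cells, and hepatocytes contain comparatively little caveolin-1.

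The study measured total liver RNA of male mice with a deficiency in the IRE1α-XBP1 branch of the unfolded protein response. IRE1α, encoded by Ern1, is the endoplasmic reticulum (ER) sensor that splices the mRNA of the transcription factor XBP1. WT littermates and Xbp1 ko mice were compared at 14 weeks of age in the fed state, with 4 arrays each. Xbp1 ko mice of 9 weeks were taken 8 days after injection of luciferase siRNA, a control, or of IRE1 siRNA, again with 4 arrays each. WT and Ire1 ko mice of 14 weeks were either untreated, in the fed state, or taken 6 h after 2 mg/kg of tunicamycin, which blocks N-glycosylation and causes ER stress. These groups held 4 arrays, apart from untreated Ire1 ko with 3. The strain was labelled c57BL/6 throughout, except for Ire1 ko, whose strain was labelled mixed although the untreated WT mice were titled their littermates. Where those labels are right, an effect of strain and one of Ire1 cannot be told apart. The labels used here do not say in which cells either gene was deleted, and all siRNA mice were Xbp1 ko, with no WT mice given siRNA.

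Values are deposited whole-number intensities, not log-transformed, and the array median was 5 on all 31 arrays. Values from about 4 to 6 were therefore at the floor of the table, where 1 rounding step is a large step on the log2 scale. The brightest Xbp1 probe set read 807 to 1140 in the WT littermates, 404 to 567 in Xbp1 ko and 393 to 557 on the 8 siRNA arrays. The brightest Ern1 probe set read 18 to 35 on the arrays labelled luciferase siRNA and 169 to 236 on those labelled IRE1 siRNA, which goes against the labels. If those labels were exchanged, each direction given for the siRNA contrast would turn. Ern1 read 148 to 153 in untreated Ire1 ko and 121 to 203 in untreated WT. Whether that probe set lies in the deleted part is not given in the sources used here. The 10 hepatocyte markers with a probe set summed to between 36951 and 43380 on all 31 arrays, so the defining genes of the labelled tissue were present throughout.

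The stretches before the annotated starts of both genes are shown because the deleted gene, Xbp1, encodes a transcription factor and the caveolin genes are neighbours on mouse chromosome 6. They are RefSeq sequences on GRCm38.p6, plus strand, 5′ to 3′, each ending at the base before a start, and capitals mark matches to ACGT or to CCACG on either strand. Cav1 has 2 annotated starts.
Cav2, chr6:17280935-17281184: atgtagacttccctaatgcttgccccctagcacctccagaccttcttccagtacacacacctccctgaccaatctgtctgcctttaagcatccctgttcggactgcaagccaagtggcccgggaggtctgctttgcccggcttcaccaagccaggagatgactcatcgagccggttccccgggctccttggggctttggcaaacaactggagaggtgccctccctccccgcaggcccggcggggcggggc
Cav1, first start, chr6:17306085-17306334: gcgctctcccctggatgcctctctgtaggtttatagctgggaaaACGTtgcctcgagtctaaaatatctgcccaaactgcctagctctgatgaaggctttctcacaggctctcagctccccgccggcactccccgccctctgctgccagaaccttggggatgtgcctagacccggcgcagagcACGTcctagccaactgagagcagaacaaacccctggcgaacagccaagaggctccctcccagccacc
Cav1, second start, chr6:17307390-17307639: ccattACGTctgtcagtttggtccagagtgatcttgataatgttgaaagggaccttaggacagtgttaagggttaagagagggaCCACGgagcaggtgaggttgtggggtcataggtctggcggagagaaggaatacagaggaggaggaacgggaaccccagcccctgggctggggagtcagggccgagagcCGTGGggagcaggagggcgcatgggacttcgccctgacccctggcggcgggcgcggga
Motifs of the unfolded protein response were searched on both strands of these 250-base windows. The UPRE (TGACGTG), the ERSE (CCAAT, any 9 bases, CCACG) and ERSE-II (ATTGG, any 1 base, CCACG) had no match in any of the 3. They had matches in 1.65%, 0.113% and 0.0304% of 32851 promoter windows of the same length. The shorter core ACGT matched at 206 to 203 and at 67 to 64 bases before the first Cav1 start, and at 245 to 242 bases before the second. CCACG, the last part of the ERSE, matched at 166 to 162 bases and, on the opposite strand, at 58 to 54 bases before the second start. ACGT was in 26.9% of all windows and CCACG in 28.3%, and the Cav2 window held neither. A match of letters is a description and not a binding site.

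Cav1 was near the floor in the WT littermates and well above it in Xbp1 ko. The 4 WT littermates read 8, 6, 7 and 6, with a mean of 6.75 ± 0.957 (SD, n = 4). The 4 Xbp1 ko livers read 100, 61, 64 and 84, with a mean of 77.2 ± 18.3 (SD, n = 4). The ranges were far apart, and the lowest Xbp1 ko liver was several times the highest littermate. On the log2 scale the difference was 3.5 (SE 0.18), or 11.3-fold. Because the WT littermates were at or near the floor, this fold is a lower bound. The choice of the gene used this contrast, in which 1.61% of all probe sets tested passed the threshold (adjusted p under 0.05), and no test is given. In whole liver, more cells of a type and more RNA per cell cannot be told apart. Against an offset of 16, which damps values near the floor, the difference was 2.02.

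**Figure D1:**
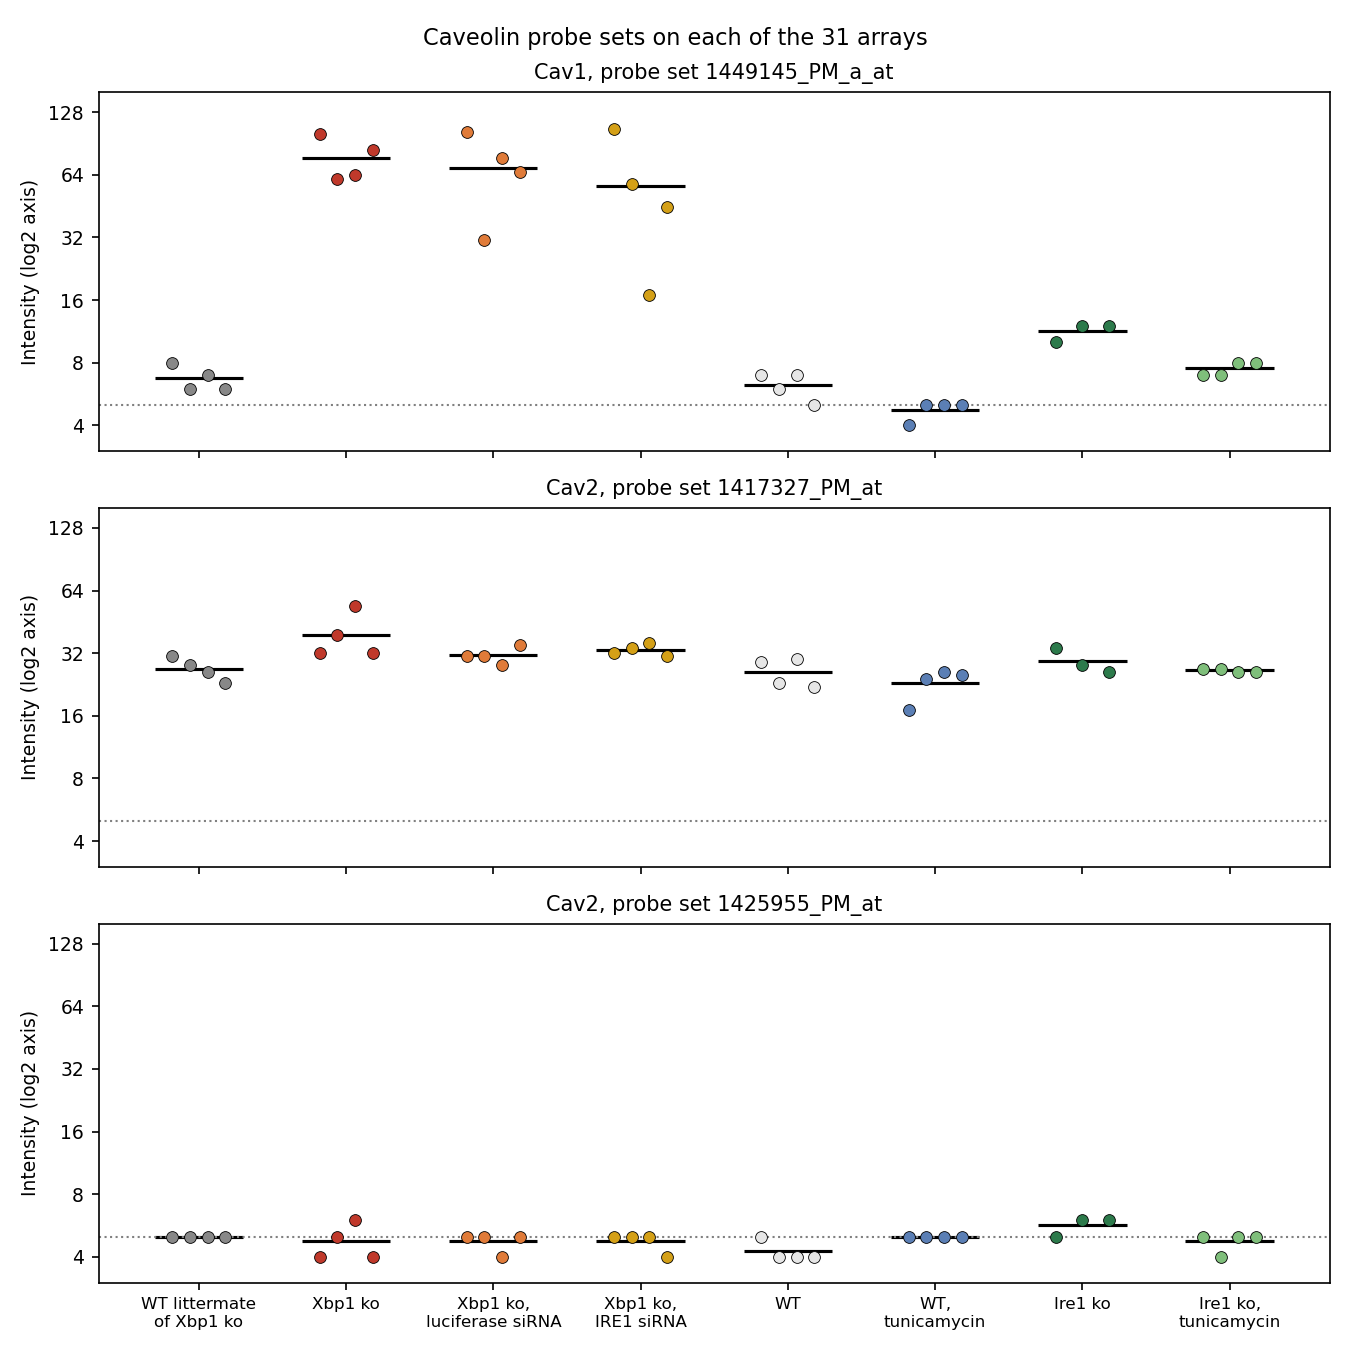
Intensity (log2 axis) of Cav1 and both Cav2 probe sets in 3 panels, with 1 point for each of the 31 arrays, the 8 groups along the x axis, a bar at each group mean and a dotted line at the array median of 5. Cav1 lay between 17 and 106 on the 12 Xbp1 ko arrays and between 4 and 12 on the other 19, while the Cav2 probe sets stayed between 17 and 54 and between 4 and 6.

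The 8 siRNA arrays, which the choice did not use, also came from Xbp1 ko mice, and Cav1 was above the floor on all of them. Arrays labelled luciferase siRNA read 103, 31, 77 and 66 (mean 69.2 ± 29.8, SD, n = 4). Arrays labelled IRE1 siRNA read 106, 58, 17 and 45 (mean 56.5 ± 37.2, SD, n = 4). Together the 12 Xbp1 ko arrays ran from 17 to 106 with a median of 65, against 4 to 12 with a median of 7 on the 19 arrays not labelled Xbp1 ko. These ranges did not overlap. The 4 Xbp1 ko livers without siRNA and the 4 WT littermates among them were used in the choice. Outside the choice, the 8 siRNA arrays ran from 17 to 106 and the 15 arrays of the Ire1 experiment from 4 to 12. The siRNA mice were younger than all WT mice, so genotype, age and siRNA cannot be told apart across these experiments. Among the probe sets of its own array, Cav1 stood at percentiles from 78.5 to 91.7 in Xbp1 ko and from 1.2 to 77.3 elsewhere. A percentile is the share of probe sets strictly below, and many tie at the floor. The 1.2 came from a reading of 4, where readings of 5 gave 31.4 to 36.5.

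Between the arrays labelled IRE1 and luciferase siRNA, Cav1 did not pass the test. The log2 difference was −0.45 (SE 0.60, 95% interval −1.86 to 0.96, limma adjusted p = 0.756), and the ranges overlapped almost fully. In this contrast 1.12% of all probe sets passed. Without replicate 3 of IRE1 siRNA, the array at 17, the difference was 0.038, so its sign rested on that array. Cav1 varied strongly between the mice of a group. The SD on the log2 scale was 0.74 with luciferase siRNA and 1.10 with IRE1 siRNA, where probe sets within 2-fold of its mean had median SDs of 0.16 and 0.15. It exceeded the SD of 99.2% and 99.7% of those probe sets, and in the Xbp1 ko livers without siRNA, with an SD of 0.34, that of 91.0%.

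In the Ire1 experiment Cav1 was close to the floor in every group, yet it was higher in Ire1 ko than in WT. Untreated WT livers read 7, 6, 7 and 5 (mean 6.25 ± 0.957, SD, n = 4), and untreated Ire1 ko livers read 10, 12 and 12 (mean 11.3 ± 1.15, SD, n = 3). The ranges did not overlap, and the log2 difference was 0.87 (SE 0.13, 95% interval 0.58 to 1.15, at least 1.82-fold, limma adjusted p = 0.00376). As the WT livers were at or near the floor in both states, the folds against them are lower bounds. Only 0.579% of all probe sets passed in this contrast, and 0.0568% passed as higher. After tunicamycin, WT livers read 4, 5, 5 and 5 (mean 4.75 ± 0.500, SD, n = 4) and Ire1 ko livers 7, 7, 8 and 8 (mean 7.5 ± 0.577, SD, n = 4). Cav1 was again higher in every Ire1 ko liver, by 0.66 on the log2 scale (SE 0.12, 95% interval 0.40 to 0.92, at least 1.58-fold, adjusted p = 0.00125). In that contrast 12.6% of all probe sets passed, 6.17% as higher.

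Cav1 read lower after tunicamycin in both genotypes, but in WT both readings were at or near the floor. In Ire1 ko it fell by 0.59 (SE 0.13, 95% interval −0.88 to −0.31, adjusted p = 0.00356), with no overlap between 10 to 12 untreated and 7 to 8 treated. In WT the difference was −0.39 (SE 0.12, 95% interval −0.65 to −0.13, adjusted p = 0.0256), where both groups held livers at 5. Falls were common after the drug: 27.2% of all probe sets passed in WT, 12.1% as lower, and 20.1% passed in Ire1 ko, 6.89% as lower. The interaction did not pass in limma, at −0.20 (SE 0.18, 95% interval −0.59 to 0.18, adjusted p = 0.685), and 5.03% of probe sets passed there. Since untreated WT was already at or near the floor, a fall in WT could not be read in full. The interaction therefore cannot show whether the genotypes responded alike. The 4 contrasts of this experiment share their arrays, so they are not independent of each other.

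The WT difference rested on steps of 1 or 2 units at the floor and gives no measured fall. It missed the threshold without untreated WT replicate 1 (−0.33, adjusted p = 0.0825), without untreated WT replicate 3 (−0.33, 0.0821) and without tunicamycin-treated WT replicate 1 (−0.31, 0.0929). A single fit over all 31 arrays, whose estimate of the Cav1 spread includes the variable siRNA mice, left none of the 4 calls. There the adjusted p values were 0.388 for Ire1 ko untreated, 0.202 for Ire1 ko after tunicamycin, 0.262 for tunicamycin in Ire1 ko and 0.435 for tunicamycin in WT, at the same differences. With an offset of 16 the same differences shrank to 0.30, 0.18, −0.22 and −0.10.

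**Figure D2:**
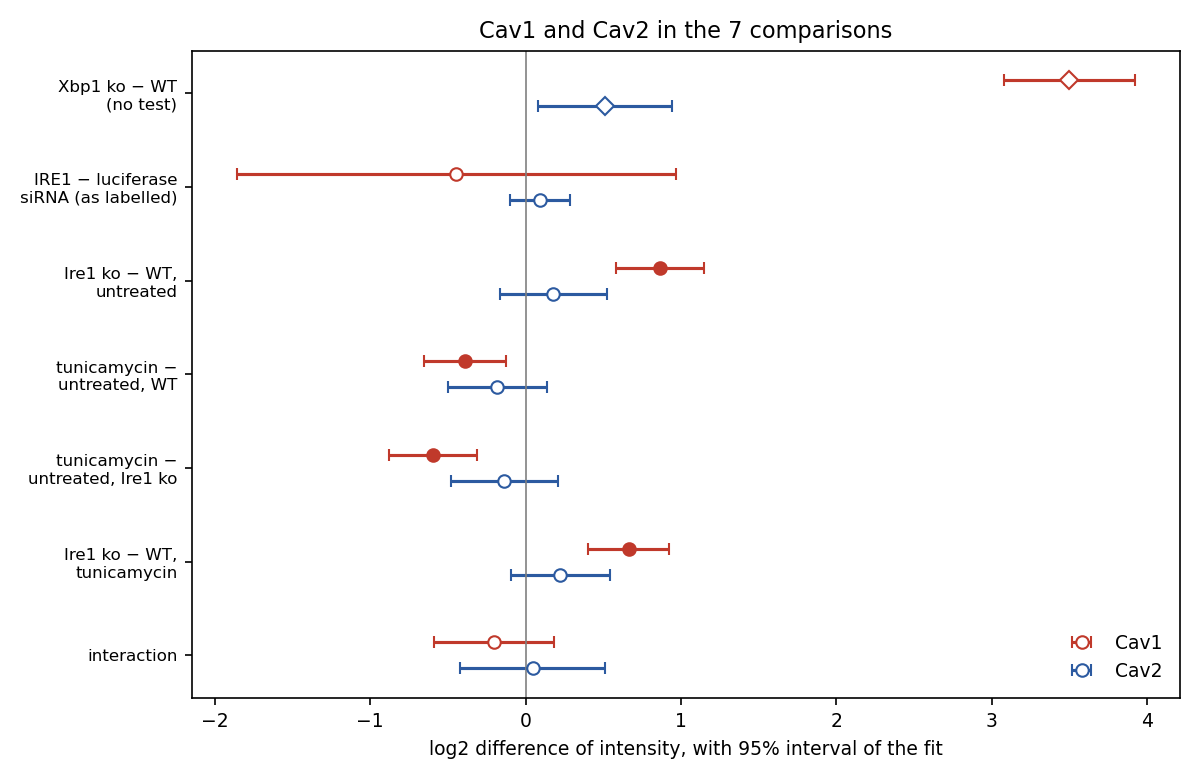
Log2 difference of Cav1 and Cav2 in each of 7 comparisons (points) with the 95% interval from limma (bars), where filled points passed the threshold and diamonds were not tested. The bars of the diamonds take no account of the choice of the genes on that comparison and are no test. The Cav1 interval lies above 0 for both Ire1 ko against WT comparisons (0.87 and 0.66) and below 0 for both tunicamycin comparisons (−0.39 and −0.59), while the Cav2 intervals span 0 in the 6 comparisons tested.

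Ordered by mean, Cav1 was lowest in WT after tunicamycin at 4.75, then in untreated WT at 6.25, in the WT littermates of Xbp1 ko at 6.75, in Ire1 ko after tunicamycin at 7.5 and in untreated Ire1 ko at 11.3. The Xbp1 ko groups followed, with IRE1 siRNA at 56.5, luciferase siRNA at 69.2 and no siRNA at 77.2. The WT groups overlapped their neighbours in this order, as did the 3 Xbp1 ko groups. The highest value of any other liver was 12 and the lowest of any Xbp1 ko liver was 17, in IRE1 siRNA replicate 3. The next lowest Xbp1 ko liver read 31, so the narrowness of the gap rested on that replicate. Groups of different experiments were not tested against each other, and whether all arrays were normalised together is not given in the sources used here.

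The brighter Cav2 probe set was above the floor in every liver, and its values ran from 17 to 54 over the 31 arrays, where those of Cav1 ran from 4 to 106. It read 31, 28, 26 and 23 in the WT littermates (mean 27.0 ± 3.37, SD, n = 4) and 32, 39, 54 and 32 in Xbp1 ko (mean 39.2 ± 10.4, SD, n = 4). The lowest Xbp1 ko liver lay 1 unit above the highest littermate. The log2 difference was 0.51 (SE 0.19), given without a test because the pair was chosen on this contrast. Averaged with the second probe set it was 0.21. That second probe set, 1425955_PM_at, read 4 to 6 on all 31 arrays and passed in none of the contrasts tested, with its lowest adjusted p at 0.0653 for the interaction and its lowest unadjusted p at 0.00136 in untreated Ire1 ko.

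In the contrasts left for testing the brighter Cav2 probe set passed in none, and its lowest unadjusted p was 0.155. Arrays labelled luciferase siRNA read 31, 31, 28 and 35 (mean 31.2 ± 2.87, SD, n = 4) and those labelled IRE1 siRNA 32, 34, 36 and 31 (mean 33.2 ± 2.22, SD, n = 4). The difference was 0.09 (SE 0.08, adjusted p = 0.729). Untreated WT livers read 29, 23, 30 and 22 (mean 26.0 ± 4.08, SD, n = 4), and untreated Ire1 ko livers read 34, 28 and 26 (mean 29.3 ± 4.16, SD, n = 3). These ranges overlapped, with a difference of 0.18 (SE 0.16, adjusted p = 0.840). After tunicamycin the WT livers read 17, 24, 26 and 25 (mean 23.0 ± 4.08, SD, n = 4), and the Ire1 ko livers read 27, 27, 26 and 26 (mean 26.5 ± 0.577, SD, n = 4). Tunicamycin differences were −0.18 (SE 0.15, adjusted p = 0.438) in WT and −0.14 (SE 0.16, adjusted p = 0.652) in Ire1 ko. After tunicamycin, Ire1 ko was 0.22 above WT (SE 0.15, adjusted p = 0.449), and the interaction was 0.05 (SE 0.22, adjusted p = 0.954). The 8 siRNA arrays read 28 to 36, between the Xbp1 ko livers without siRNA and the WT livers and overlapping both.

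Cav1 and Cav2 were also set against each other within the Xbp1 ko arrays. Because Cav1 split the arrays into 12 high and 19 low ones, no value was computed over all arrays. Over the 12 Xbp1 ko arrays, log2 Cav1 and log2 Cav2 had Pearson's r of −0.14 and Spearman's rho of −0.23, given with no p because 4 of these arrays were used in choosing the genes. Without the 2 arrays farthest from the median of Cav1, r was −0.29. Within the 8 siRNA arrays alone, in 2 groups, r was −0.45 (exact permutation p = 0.272) and rho −0.32 (exact permutation p = 0.455), so no relation was detected. Without the 2 farthest arrays r was −0.20.

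**Figure D3:**
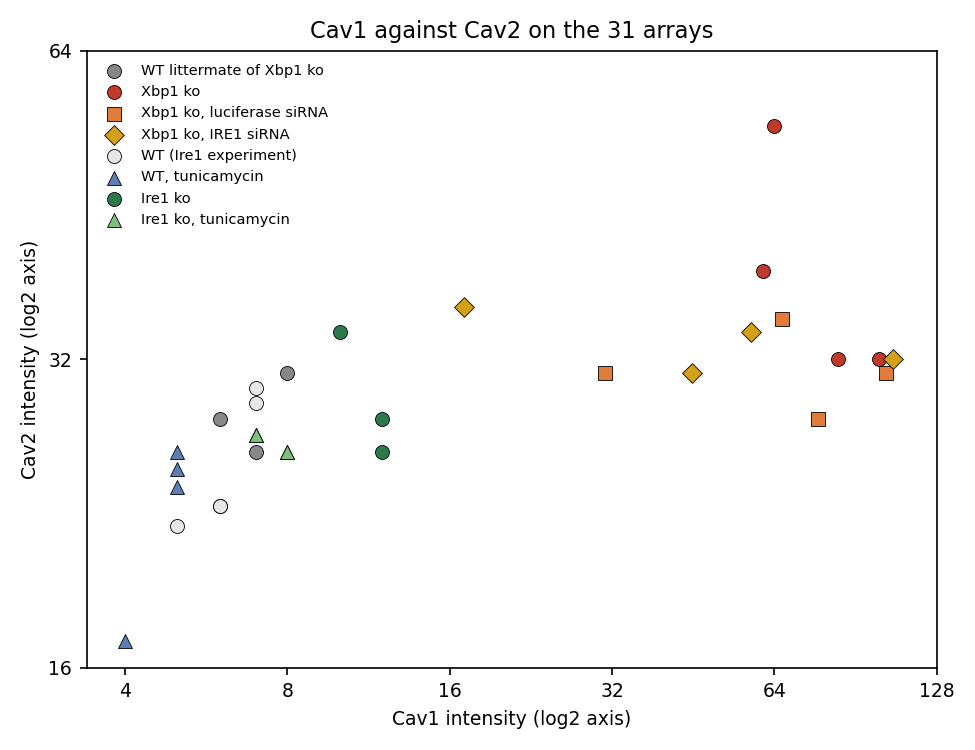
Cav1 intensity against Cav2 intensity of the brighter probe set (both log2 axes), with 1 point for each of the 31 arrays, some on top of each other, and a colour and marker for each group. The 12 Xbp1 ko arrays lie to the right at Cav1 values of 17 or more, with Cav2 between 28 and 54, and the other 19 arrays lie at 12 or less.

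The caveolar coat around the caveolins was read from a list of 12 genes. The list held caveolin-3, the cavins that stabilise the coat, the Ehd ATPases at the neck, the membrane-bending Pacsin proteins and dynamin-2 (Dnm2), which cuts vesicles off. Of these genes 11 were tested in Xbp1 ko against WT littermates and 0 passed in limma, also 0 at an unadjusted p under 0.05. In this contrast 2.25% of all genes passed, so a count of 0 is near the background. The median difference of the list was −0.06, against 0.01 over all genes tested. Cavin1, the cavin that caveolae cannot form without, stayed at 4 to 5 in all 8 groups, as did Cav3 and Cavin4. Ehd2 read 4 to 7 and Cavin3 4 to 7. Cavin2 was measurable and read 44.8 ± 7.72 in the WT littermates and 47.0 ± 3.92 in Xbp1 ko (SD, n = 4 each). Pacsin2, the most strongly responding Pacsin after the drug, read 129.2 ± 22.9 and 131.8 ± 14.1 there (SD, n = 4 each). A probe set at the floor gives no measure of the gene.

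Across the siRNA contrast 0 of 9 tested coat genes passed, 1 of them at an unadjusted p under 0.05, where 1.57% of all genes passed and 14.7% did so unadjusted. In untreated Ire1 ko 1 of 9 passed, against 0.824% of all genes and 0.751% as lower. This was Pacsin3, which fell by 0.63 (SE 0.13, adjusted p = 0.0444), from 44.2 ± 3.30 to 28.7 ± 3.06, and missed the threshold in 17 of 25 alternative settings.

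After tunicamycin some coat genes rose. In WT 4 of 9 passed as higher and 0 as lower, where 34.6% of all genes passed and 18% as higher. Ehd4 went from 7 ± 2.16, at or near the floor, to 41.0 ± 4.55 (log2 difference at least 2.61, SE 0.21, adjusted p = 5.36e-08). Pacsin2 rose by 1.17, from 160.2 ± 14.0 to 359.5 ± 20.9. Ehd1 rose by 0.82 and Dnm2 by 0.74. In Ire1 ko 3 of 9 passed as higher, against 26.3% of all genes and 16.6% as higher: Pacsin2 by 1.04, Ehd4 by at least 0.80 and Pacsin3 by 0.48. The Ehd4 call there was lost in 4 of 25 alternatives and the Pacsin3 call in 3. Compared after tunicamycin, Ehd4 (−1.98), Ehd1 (−0.87) and Dnm2 (−0.47) were lower in Ire1 ko than in WT, the opposite side from Cav1. Here 16.8% of all genes passed and 8.07% as lower. The Ehd4 interaction passed in limma (−1.81, SE 0.31, adjusted p = 0.00189), as it did for 6.54% of all genes. Untreated Ehd4 was at or near the floor in both genotypes, at 4 to 9 in WT and 5 to 7 in Ire1 ko. The Ehd4 interaction therefore rests on the treated levels and gives no measured difference in response. Dnm2 lost its call between the treated genotypes in 3 of 25 alternatives.

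**Figure D4:**
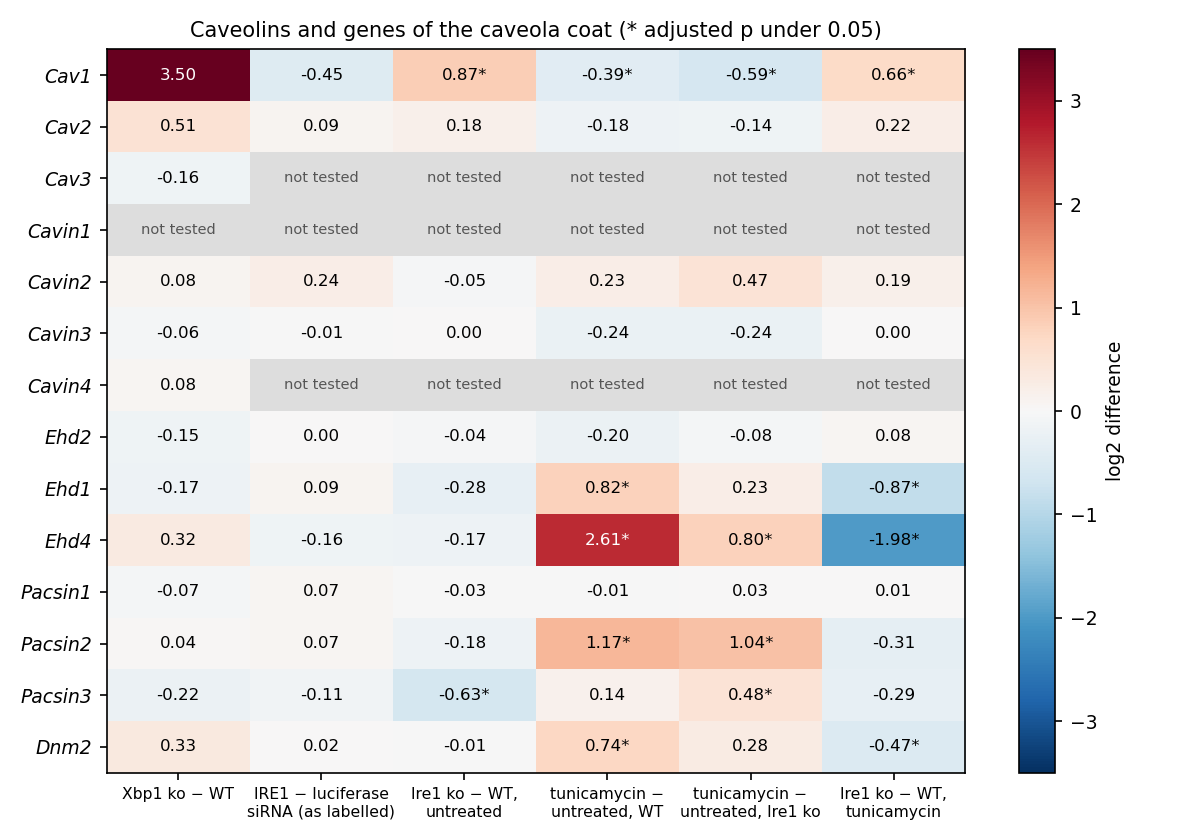
Log2 difference of Cav1, Cav2 and the coat genes (rows) in 6 comparisons (columns), with colour and number giving the difference, an asterisk an adjusted p under 0.05 and grey a gene too dim to be tested. Xbp1 ko was not tested for Cav1 and Cav2. Cav1 stands out in the Xbp1 ko column, on which it was chosen, and the coat genes there run from −0.22 to 0.33. Of the 12 coat genes, 7 had a mean of 6 or less in the WT littermates and 6 in Xbp1 ko. Ehd4 stands out in the column of tunicamycin in WT at 2.61.

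Proteins reported to reside in caveolae or to bind caveolin-1 formed a list of 18 genes, 17 with a probe set. In Xbp1 ko 0 of 17 passed in limma, and 5 were higher at an unadjusted p under 0.05, which 14.1% of all genes reached in either direction. Egfr, the receptor of epidermal growth factor, read 383.5 in WT littermates and 596.5 in Xbp1 ko (log2 difference 0.64). The TGF-β receptor Tgfbr1 read 36.0 and 55.2. On the arrays labelled IRE1 siRNA Tgfbr1 was the list's 1 call, 0.84 higher than with luciferase siRNA (adjusted p = 0.0116, where 1.57% of all genes passed), and it was lost in 3 of 18 alternatives. Tunicamycin in WT changed 7 of 17, of which 6 fell (16.6% of all genes did), among them Egfr (−1.69), Tgfbr2 (−1.11), Adcy6 (−0.81) and, near the floor, Nos3 (−0.53), the endothelial nitric oxide synthase that caveolin-1 holds inactive. Prkca (protein kinase Cα), also dim, rose by 1.06, and by 0.43 to 1.15 across 24 alternatives. In Ire1 ko 3 fell, where 9.72% of all genes did, with Egfr by 1.15. Untreated Ire1 ko had 0 calls in this list, with 3 higher and 2 lower at an unadjusted p under 0.05, against 0.824% of all genes called and 9.48% unadjusted.

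Flotillins and related scaffolds, which form membrane domains without caveolin, were at 0 of 9 calls in Xbp1 ko (2.25% of all genes), with 1 higher at an unadjusted p under 0.05. After tunicamycin in WT 6 of 9 were lower, with Flot1 at −1.36 and Flot2 at −1.30, and 1 was higher, the ER scaffold Erlin1 at 1.31, where 16.6% of all genes were lower and 18% higher. Components of clathrin uptake, the other main route of endocytosis, formed a list of 12 genes. Of these 9 could be read, while Cltc, Ap2m1 and Picalm had no probe set used here. Calls in Xbp1 ko were 0 of 9, with 1 at an unadjusted p under 0.05. After tunicamycin in WT 2 were higher and 4 lower, against the same shares of all genes in each contrast. Lipid droplet proteins, listed because caveolin-1 also coats droplets, gave 0 of 16 in Xbp1 ko. At an unadjusted p under 0.05 they gave 4 higher and 2 lower, where 14.1% of all genes reached it. Plin4, a perilipin, read 5.75 in WT littermates and 19.2 in Xbp1 ko (log2 difference 1.51), and the droplet protein Fitm1 read 113.2 and 199.8.

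Markers of cell types that carry caveolins are given beside these values, and their part in the Cav1 difference was not tested. In the 8 marker lists 0 of 80 genes tested passed in limma in Xbp1 ko against WT littermates, and 10 had an unadjusted p under 0.05, against 2.25% and 14.1% of all genes. In the siRNA contrast 0 of 77 passed and 16 had an unadjusted p under 0.05, against 1.57% and 14.7% of all genes. The 20 endothelial markers summed to between 937 and 978 in the littermates and between 872 and 1003 in Xbp1 ko, and 1 of 20 was lower at an unadjusted p under 0.05. The 8 adipocyte markers with a probe set summed to 4582 to 5487 and 4653 to 5597, almost all of it from Car3, whose mean was 5070 and 5003, and 5 of 8 in the littermates and 4 of 8 in Xbp1 ko had a mean of 6 or less. Among them Plin4, at 5 to 7 in the littermates and 9 to 32 in Xbp1 ko, was the list's 1 gene at an unadjusted p under 0.05 (adjusted p = 0.239). Stellate and fibroblast markers summed to 869 to 1088 and 1057 to 1278. Smooth muscle markers summed to 86 to 127 and 113 to 188, with 6 of 8 at a mean of 6 or less in both groups. All 6 mesothelial markers were at the floor. Macrophage markers summed to 1476 to 1643 and 1260 to 2372. The cholangiocyte sum did not overlap, at 169 to 218 in the littermates and 239 to 282 in Xbp1 ko, but 7 of its 8 markers had a mean of 6 or less and the sum was carried by Anxa4. In the Ire1 experiment 0 of 78 markers passed between untreated genotypes in limma (4 at an unadjusted p under 0.05), and 2 rose and 12 fell after tunicamycin in WT, against 18% and 16.6% of all genes. The untreated endothelial sums were 810 to 1062 in WT and 732 to 1044 in Ire1 ko. After tunicamycin they were 725 to 820 and 794 to 994. The macrophage sums there were 890 to 1800 and 889 to 2716 untreated, and 647 to 870 and 954 to 1323 after tunicamycin.

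Cav2 and Cav1 lie next to each other on mouse chromosome 6, between Tes and Met. The 10 nearest annotated genes with a probe set were read, 5 on each side. In limma 0 of 9 tested passed in Xbp1 ko against WT littermates (2 at an unadjusted p under 0.05), 0 of 10 in the siRNA contrast (2 unadjusted) and 0 of 10 in untreated Ire1 ko (0 unadjusted). Tes, which encodes the actin-associated protein testin and directly precedes Cav2, read 5 ± 0.816 in the WT littermates and 5.50 ± 0.577 in Xbp1 ko (SD, n = 4 each). Met, the receptor of hepatocyte growth factor, directly follows Cav1 and read 71.5 ± 9.88 and 62.8 ± 7.09 (SD, n = 4 each).

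After tunicamycin 4 of the 10 neighbours passed in WT and 5 in Ire1 ko, in both directions, where 34.6% and 26.3% of all genes passed. Tes rose from 5.50 ± 1.29 to 470.2 ± 64.5 in WT (log2 difference at least 6.44, adjusted p = 1.67e-13). In Ire1 ko it went from 5 to 52.8 ± 8.30 (at least 3.39). Both untreated groups were at the floor, so these differences are lower bounds and the interaction of −3.05 (adjusted p = 1.06e-06) rests on the treated levels, which differed by −3.16 between Ire1 ko and WT. Met fell by 1.87 in WT, from 116.2 ± 3.30 to 32 ± 4.69, and by 0.77 in Ire1 ko. Mdfic, further out on the Tes side, rose by 1.44 in WT and by 1.88 in Ire1 ko.

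**Figure D5:**
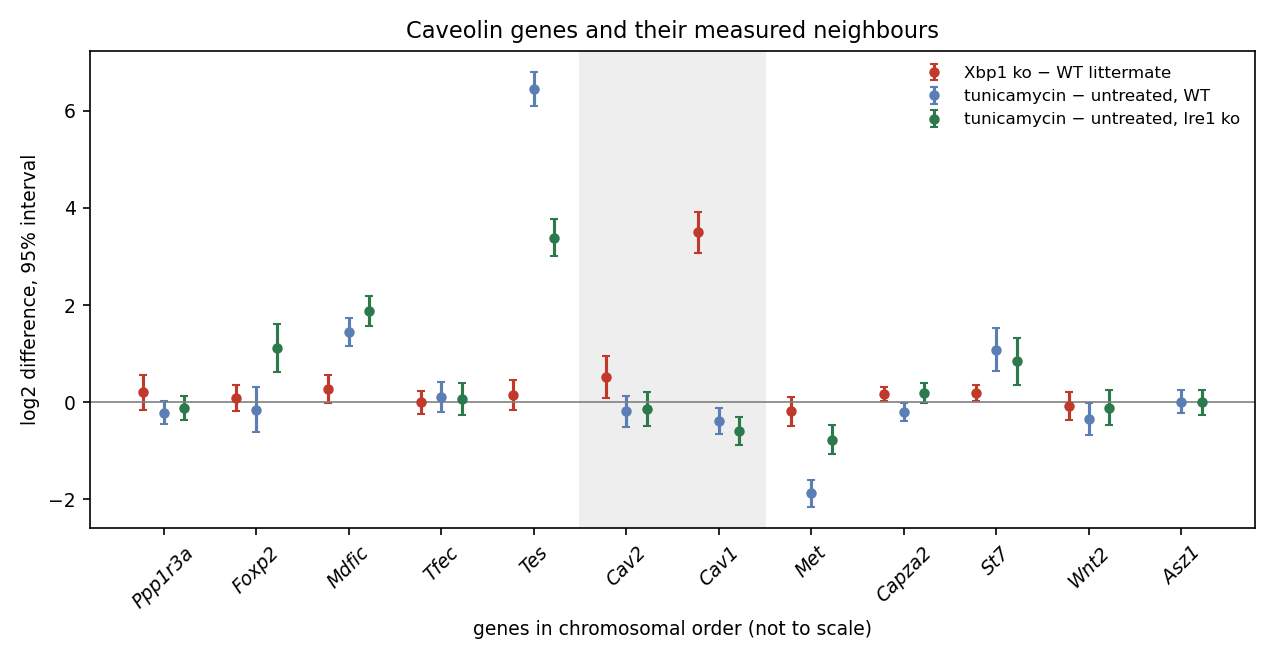
Log2 difference of the genes around Cav2 and Cav1, in their order along chromosome 6 (x axis, not to scale), with points and 95% intervals coloured by comparison, and Cav2 and Cav1 on a grey ground. For Cav1 and Cav2 in Xbp1 ko the interval takes no account of their choice and is no test. Cav1 is the only gene of the row above 1 in Xbp1 ko against WT littermates, the comparison on which it was chosen. Tes (6.44 and 3.39) exceeds all others after tunicamycin, from untreated readings at the floor.

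Likeness to Cav1 was described by Pearson's r on the log2 scale over the 31 arrays, among 6610 genes with at least 1 group mean of 16 or more. The arrays share few groups and split into high and low Cav1, so r mostly compares the 12 Xbp1 ko arrays with the rest and carries no p. The most alike were Tpm2, a muscle-type tropomyosin (r = 0.84, Spearman's rho = 0.75), Pparg, the adipogenic nuclear receptor (0.80, 0.78), and the cap-binding protein Eif4e3 (0.80, 0.83). Got2, Tgfbr3, Tmem98, Ppp1r9a and Stmn1 followed with r between 0.78 and 0.79. Tpm2 averaged 21.2 ± 3.30 in the WT littermates, 52.8 ± 16.1 in Xbp1 ko, 43.5 ± 11.6 with luciferase siRNA and 77.0 ± 26.6 with IRE1 siRNA (SD, n = 4 each). Pparg averaged 21.5 ± 5.69, 41.2 ± 12.9, 29.5 ± 5.80 and 42.2 ± 8.46 in the same groups. Between the siRNA labels neither passed in limma (adjusted p = 0.311 for Tpm2 and 0.290 for Pparg), as Cav1 did not.

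The 4 genes most opposite to Cav1 were Erp44, a thioredoxin-like protein of the secretory pathway (r = −0.87), Sil1, the nucleotide exchange factor of the chaperone BiP (−0.86), Cnpy3 (−0.84) and Rpn2, a subunit of the oligosaccharyltransferase (−0.84). Erp44 averaged 524.2 ± 19.6 in the WT littermates and 150 ± 14.4 in Xbp1 ko. It was 234.5 ± 25.2 with luciferase siRNA and 117.5 ± 15 with IRE1 siRNA (SD, n = 4 each). Between the siRNA labels Erp44 (−1), Sil1 (−0.43) and Rpn2 (−0.35) passed in limma, where 1.57% of all genes passed. Cnpy3, like Cav1, did not pass. The Erp44, Sil1 and Rpn2 calls were lost in 1, 7 and 9 of 18 alternatives. Nearest to Cav2 were Pigu (0.78), Fam124a (0.78), Ccdc80 (0.77) and Vim (0.76).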

How the data were processed

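Total liver RNA of male mice was hybridised to Affymetrix arrays, 31 in 8 groups taken from the labels, which call them biological replicates. Per the submitters' processing notes the authors used RMA and affy, with no versions given. The deposited table holds 1 whole-number intensity per probe set and array, not on a log scale, and log2 was taken here before fitting. The array annotation gave 28898 probe sets 1 symbol, 551 several and 15588 none, and 16936 of 17097 genes were matched by gene ID. Genes were read from their brightest probe set by mean over the 31 arrays.

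Comparisons used lmFit and eBayes with an intensity trend, from limma 3.58.1 in R 4.3.3, in fits of 8, 8 and 15 arrays. Tested probe sets lay above the 30th percentile of their array in at least 3 arrays. Two-sided p values received the Benjamini-Hochberg adjustment across all probe sets tested, at a threshold of 0.05. The caveolins, the 13 gene lists and all comparisons were chosen with earlier results of these data known. Named were the caveolins, Xbp1, Ern1, the coat genes, called or bright list members, 5 neighbours on each side and the genes most like or opposite by correlation. The methods were tested on simulated data, in which the changed probe sets had a mean of 16 or more. The simulation therefore did not cover changes near the floor, such as those of Cav1 in the Ire1 experiment. Alternatives covered normalization, offset, filter, probe sets, the extent of the fit, the replicate block and leaving out each replicate. Depth does not apply to arrays, whose number limits the precision.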

Additional observations from a re-analysis of the deposited data

Results flagged for a closer look

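In a group of 4 arrays, an array was singled out where its gap to the nearest other made up a larger share of the range of the group than Dixon's 95% critical value, which chance gives in about 1 of 20 groups. For Cav1 this was WT after tunicamycin, with a share of 1, where 1 liver read 4 and the others 5. For the dim Cav2 probe set 1425955_PM_at the share was also 1 with luciferase siRNA, with IRE1 siRNA, in untreated WT and in Ire1 ko after tunicamycin, each time from a single rounding step. Cavin2 had a share of 1 with luciferase siRNA (40 to 46) and of 0.917 in Ire1 ko after tunicamycin (42 to 66). Ehd1 had a share of 1 and Stmn1 of 0.833 in the WT littermates, where Cnpy3 had 0.889. In Ire1 ko after tunicamycin Dnm2 had 0.833 and Tgfbr3 0.875, and in WT after tunicamycin Eif4e3 had 0.889.

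The response to tunicamycin differed between WT and Ire1 ko for 11 of 163 named genes tested by limma's interaction, where 6.54% of all genes passed. Neither caveolin passed, and for Cav1 the WT livers were at or near the floor in both states. Among the neighbours of the caveolins it was −3.05 for Tes, 1.11 for Met and 1.28 for Foxp2, and untreated Tes was at the floor. Among the coat, resident and raft genes it was −1.81 for Ehd4, 0.69 for Nos3, −0.96 for Prkca, 0.55 for Phb and 0.81 for Mal2. Untreated Ehd4 was at or near the floor in both genotypes, and Nos3 and Prkca were dim. Xbp1 itself had 1.12, Anxa4 0.70 and Hnf4a 0.58. Calls were lost for Foxp2 in 12 of 25 alternatives, Prkca in 10 of 24, Nos3 in 6 of 24, Anxa4 in 3 of 25 and Mal2 in 1 of 25, and for the other 6 in none.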

How the results depend on the processing

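The Cav1 difference of Xbp1 ko was 2.02 with log2(intensity + 16), and that of Cav2 was 0.21 as the mean of both probe sets. In a single fit over 31 arrays the Cav1 calls were lost at unchanged differences of 0.87 and 0.66 (Ire1 ko, untreated and after tunicamycin), −0.39 and −0.59 (tunicamycin in WT and Ire1 ko). With log2(intensity + 16) the tunicamycin difference in WT was −0.10 (adjusted p = 0.0686). The uncalled Cav2 values turned for tunicamycin in WT (0.029, mean of probe sets) and for the interaction (−0.030 with quantile normalization, −0.0093 with a common median, −0.23 as the mean of probe sets). Leaving out each replicate in turn gave −0.84 to 0.038 for Cav1 in the siRNA contrast, −0.49 to −0.31 for Cav1 after tunicamycin in WT and −0.094 to 0.16 for the Cav2 interaction. The cause was not tested. A filter at a group mean of 16 left no Cav1 value in the Ire1 experiment. Groups share replicate numbers, but in no contrast did every pair of equal numbers correlate above 0.1 in its deviations (−0.16 to 0.27), so the numbers were not taken as pairs. In Xbp1 ko against WT littermates, though, all 4 correlations were positive (0.036 to 0.27), 2 of them above 0.1, so some pairing there remains possible. With the replicate block Cav1 kept its 4 calls, with 0.85 in untreated Ire1 ko (adjusted p = 0.0145), while the called probe sets went from 534 to 88 in Xbp1 ko and from 370 to 68 in the siRNA contrast. Over all alternatives called probe sets ran from 88 to 885 in Xbp1 ko, 68 to 618 with siRNA, 120 to 333 in untreated Ire1 ko, 5447 to 11763 and 4127 to 9771 after tunicamycin in WT and Ire1 ko, 2679 to 5343 between treated genotypes and 1119 to 2375 for the interaction. Of 3755 alternative values for 154 other calls, 343 missed the threshold and 0 turned. Values near the floor set the limit: 66.2% of the table was 6 or less.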
